A study of Mus musculus with 6 samples.

Results

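The genes of the TGF-beta, BMP and activin signalling pathway were chosen by name, as a list of 55 ligands, binding proteins, receptors, SMAD proteins and target genes. Counts for 46 of the 55 were analysed, out of 13962 genes in all, and each of the 46 passed the filter on low counts. The other 9 (Bmp2, Bmp6, Bmp7, Bmp8b, Bmpr1b, Nog, Gdf6, Gdf10 and Mstn) are not analysed here. RNA came from mouse preadipocytes of inguinal white fat, on the C57BL/6 background and immortalized with the large T antigen, which were turned into beige adipocytes in culture. The genotype of every library was TLE3F/F CreERT2, meaning floxed alleles of Tle3, a gene for a transcriptional co-repressor, together with a tamoxifen-activated Cre recombinase. The group labelled knockout received 500 nM 4-hydroxytamoxifen on day 4 for 24 hours, and the control group received ethanol over the same hours (n = 3 libraries each). Both groups were grown in 10% serum with 20 nM insulin and 1 nM T3 throughout. The induction mix added dexamethasone at 0.5 uM and rosiglitazone at 1 uM, together with indomethacin (0.125 mM) and isobutylmethylxanthine (0.5 mM). Cells were kept on rosiglitazone afterwards and harvested on day 10. The labels do not give the promoter that drives CreERT2, nor do they say that replicates were separate cultures, so the p-values may measure a purely technical spread between libraries. Treated cells that lack Cre, or that lack the floxed alleles, are not analysed here. The effects of 4-hydroxytamoxifen itself, of active Cre and of the deletion therefore cannot be told apart.

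Ligands of this family bind pairs of type I and type II serine/threonine kinase receptors, which phosphorylate receptor SMADs that then enter the nucleus with SMAD4. TGF-beta itself is secreted in a latent complex with LTBP proteins and has to be released in the matrix, while BMPs and activins are held in check by secreted antagonists such as gremlin, noggin and follistatin. In fat, TGF-beta and activin A are known to restrain the conversion of preadipocytes to adipocytes, BMP4 and BMP7 to favour adipocyte commitment, and the activin type I receptor ALK7 (Acvr1c) to be enriched in mature adipocytes.

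Tle3, the targeted gene, went against its label. It stood at 287, 289 and 294 CPM (reads scaled to a common library size with TMM factors) in libraries 1 to 3 labelled knockout, against 151, 151 and 152 CPM in controls 1 to 3 (edgeR log2 fold change 0.94, adjusted p 3.54e-07). The deposited count is for the whole gene and does not single out the floxed exons. All directions here are therefore those of the libraries labelled knockout, which are named knockout 1 to 3 where single ones are meant, regardless of their Tle3 level. Library totals were between 14606228 and 19294632 counts. Adipocyte markers were abundant in all 6 libraries. The summed CPM of 8 adipocyte markers ran from 10540 to 12130 in the libraries labelled knockout and from 9485 to 11290 in controls, and 2 of the 8 rose (Ucp1 and Lipe). Fibroblast or preadipocyte markers were abundant as well. Of 13 listed, 11 were analysed and tested, 1 rose (Dlk1) and 4 fell (Pdgfra, Dcn, Lum and Thy1), and their summed CPM ran from 12150 to 12660 in the libraries labelled knockout and from 12240 to 14150 in controls. These sums overlapped between groups, and within the controls library 2 had the lowest fibroblast sum and the highest adipocyte sum (11290 CPM). The most abundant genes weigh most in such sums. Gene by gene, 7 of the 8 adipocyte markers were higher in the libraries labelled knockout, with a median log2 fold change of 0.20. Only Lpl was lower. Of the 11 fibroblast or preadipocyte markers, 3 were higher and 8 lower, with a median of −0.10. Endothelial markers (4 of 6 analysed) summed to at most 4.3 CPM, macrophage markers (4 of 7) to at most 8.16 CPM, and the 1 mesothelial marker analysed of 4, Krt19, averaged 2.46 ± 0.458 and 4.18 ± 0.803 CPM in the libraries labelled knockout and in controls, and fell. Smooth muscle or pericyte markers (6 of 6) summed to 1778 to 1830 CPM in the libraries labelled knockout and 1668 to 1946 CPM in controls, with 2 that rose (Des and Cspg4). In such bulk RNA, fewer cells of a type and less RNA per cell cannot be told apart, and the part of these markers in the results below was not tested.

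Of the 46 pathway genes, 9 changed, that is, were called at an edgeR Benjamini-Hochberg adjusted p under 0.05 (19.6%), 2 up and 7 down. Ltbp2 and Acvr1c rose, and Tgfbr2, Id2, Tgfbr3, Fst, Inhba, Ltbp1 and Smad1 fell. Among all 13192 tested genes 12.3% changed, 6.91% rising and 5.44% falling, beside 4.35% and 15.2% of the pathway genes. The pathway genes were chosen with earlier results of these data known, so these shares are a description only. Changes were small, with absolute log2 fold changes between 0.24 and 0.51 for the 9 genes, and the median over all 46 was −0.10 beside −0.0025 over every tested gene. The groups did not overlap for 3 pathway genes that were higher and 12 that were lower in the libraries labelled knockout, and of all tested genes 31.8% did not overlap, 16.0% higher and 15.8% lower. Without control 2 the pathway genes that fell numbered 11. Among all tested genes, 1629 changed, and the number was 976 when control 1 was left out, 1068 for control 3, 962 for knockout 2 and 621 for knockout 3.

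**Figure D1:**
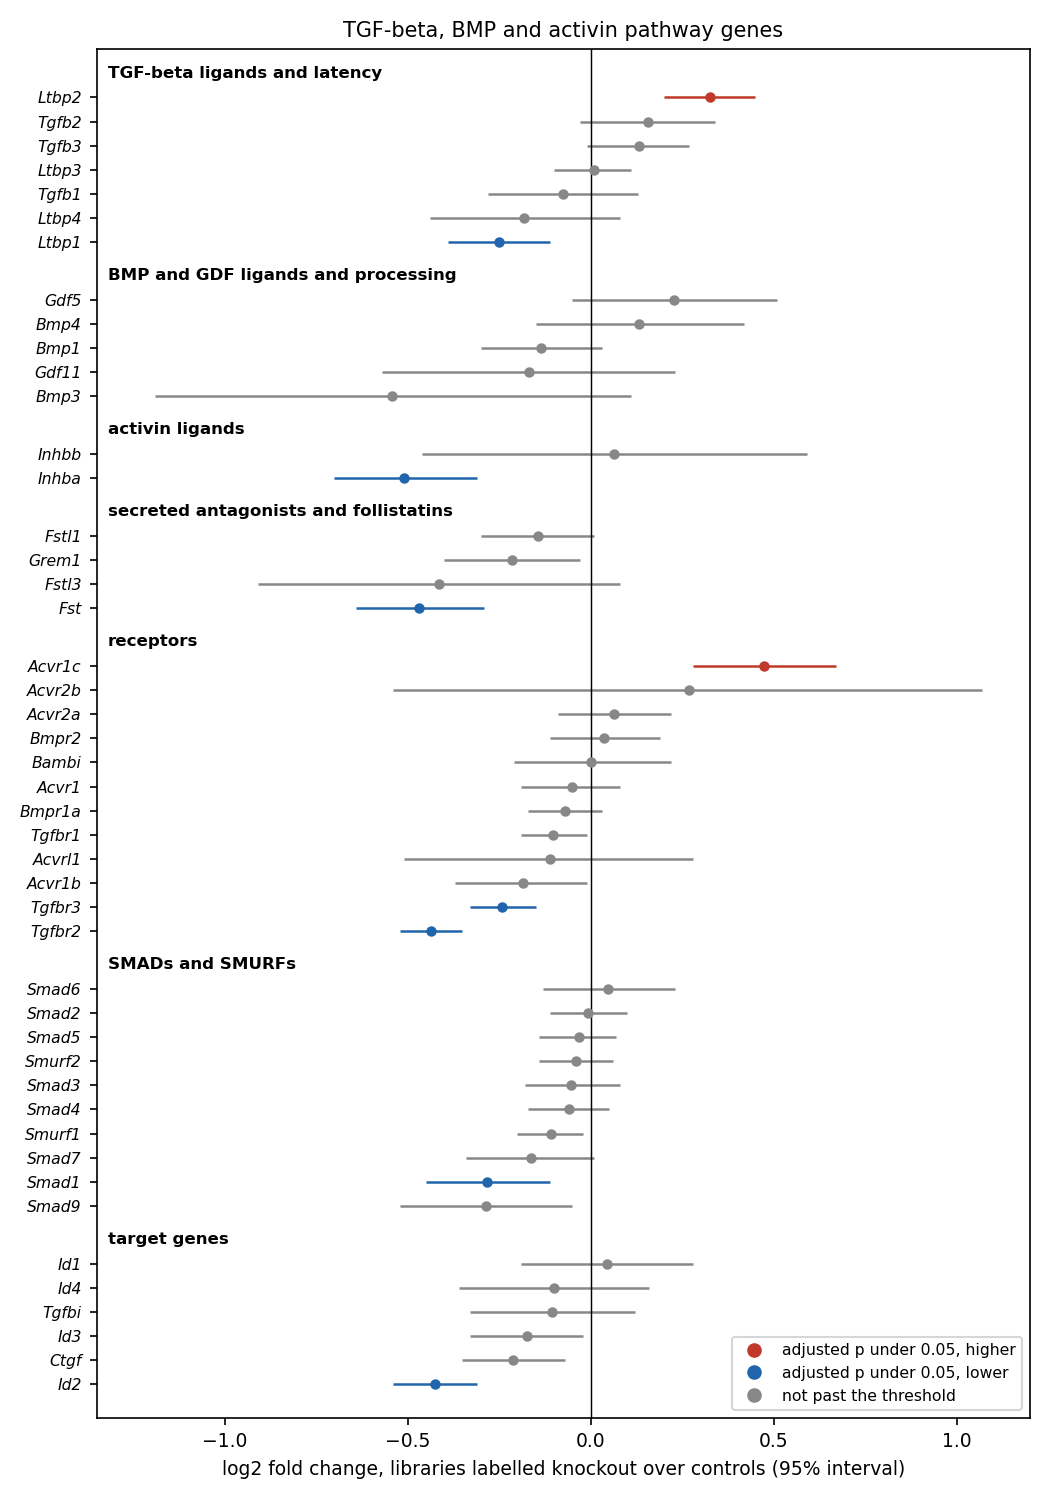
Log2 fold change (libraries labelled knockout over controls, n = 3 each) of the 46 pathway genes by role, with 95% intervals from the edgeR fit; red and blue mark genes past an adjusted p of 0.05. The 2 red points (Ltbp2, Acvr1c) lie right of 0 and the 7 blue points left of it, while most SMAD genes sit close to 0.

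Promoter sequences are shown for the 2 genes that rose and the 2 with the smallest adjusted p among those that fell, because these carry the opposite movements within the pathway. They are the 250 bases before the RefSeq start on GRCm38.p6, all on the minus strand and written 5′ to 3′: Tgfbr2 (chr9:116175364-116175613), Id2 (chr12:25096093-25096342), Ltbp2 (chr12:84876492-84876741) and Acvr1c (chr2:58357759-58358008). The table holds a further start for Acvr1c, which is not shown.
Tgfbr2: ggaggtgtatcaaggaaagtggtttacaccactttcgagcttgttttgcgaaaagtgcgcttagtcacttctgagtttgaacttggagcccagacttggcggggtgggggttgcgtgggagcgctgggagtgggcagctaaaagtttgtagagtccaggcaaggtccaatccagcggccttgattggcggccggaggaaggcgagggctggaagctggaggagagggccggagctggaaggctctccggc
Id2: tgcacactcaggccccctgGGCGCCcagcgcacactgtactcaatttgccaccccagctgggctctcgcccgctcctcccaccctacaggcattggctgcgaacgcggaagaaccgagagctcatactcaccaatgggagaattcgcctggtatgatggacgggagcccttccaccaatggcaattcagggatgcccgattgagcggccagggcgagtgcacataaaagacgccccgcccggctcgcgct
Ltbp2: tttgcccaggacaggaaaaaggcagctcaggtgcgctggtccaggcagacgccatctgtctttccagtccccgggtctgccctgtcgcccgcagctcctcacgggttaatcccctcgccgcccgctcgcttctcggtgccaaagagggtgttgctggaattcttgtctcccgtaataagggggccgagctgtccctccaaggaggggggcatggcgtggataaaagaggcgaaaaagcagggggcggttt
Acvr1c: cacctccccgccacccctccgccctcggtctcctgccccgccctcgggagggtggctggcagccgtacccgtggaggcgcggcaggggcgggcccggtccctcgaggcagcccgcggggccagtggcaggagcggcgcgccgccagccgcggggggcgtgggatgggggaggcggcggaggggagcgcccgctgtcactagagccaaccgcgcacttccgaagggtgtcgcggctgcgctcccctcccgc
The capitals mark GGCGCC, the SMAD1/5 element, which occurred once among these, in Id2, starting 231 bases before the start. This palindromic motif was found in 12 of 40 windows, or 30.0%, that matched 33 of the 46 pathway genes, and in 9.59% of all 32851 windows of that length. Besides Id2, its carriers were Bmpr1a, Bmpr2, Grem1, Id4, Ltbp4, Smad5, Smad9, Smurf2, Tgfbi and Tgfbr1, and of all these only Id2 was called. The windows differ in base composition, with a median GC content of 68.0% for the pathway genes and 52.4% over all. The TEAD element GGAATG, read on both strands, was in 2 of the 40 (Id3 and Id4) and in 12.6% of all windows. A SMAD palindrome was in 0 of the 40 and in 0.167% of all. Acvr1c had the most GC-rich of the 4 windows, at 79.6%, beside 58.4% in Tgfbr2.

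The LTBP genes Ltbp2 and Ltbp1 moved in opposite directions while the TGF-beta genes themselves did not pass the threshold. Ltbp2, a matrix protein of the LTBP family that does not bind latent TGF-beta, was at 139, 138 and 138 CPM in libraries 1 to 3 labelled knockout and at 109, 101 and 120.0 CPM in controls 1 to 3. All 3 libraries labelled knockout were above every control and lay close together. Ltbp2 rose 1.25-fold, with a log2 fold change of 0.33 (SE 0.0577, edgeR adjusted p 0.0054). Ltbp1, which anchors latent TGF-beta in the matrix, was at 175, 178 and 171 CPM in the libraries labelled knockout, against 216, 184 and 223 CPM in controls. The groups did not overlap, though control 2 lay only a little above the highest library labelled knockout. Ltbp1 fell by 0.25 on the log2 scale (SE 0.0635, edgeR adjusted p 0.0268), and this call was lost without control 1, control 3 or any 1 of the 3 libraries labelled knockout (adjusted p 0.0627 to 0.122). Ltbp3, a further binder of latent TGF-beta and the most abundant LTBP gene per length in the authors' rounded FPKM (71 and 71.7 in the libraries labelled knockout and in controls), averaged 373 ± 8.67 and 370.9 ± 18.8 CPM. Its log2 difference of 0.01 had a 95% interval from −0.10 to 0.11. Ltbp4 averaged 7.82 ± 0.344 CPM in the libraries labelled knockout and 8.82 ± 1.17 CPM in controls (edgeR adjusted p 0.35).

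The Ltbp2 to Ltbp1 ratio within each library summed up this pair, whatever the scaling between libraries. It was 0.795, 0.772 and 0.803 in libraries 1 to 3 labelled knockout and 0.503, 0.548 and 0.539 in controls 1 to 3. The groups were far apart compared with their spread, and the mean ratio was 1.49 times that of controls. The exact two-sided permutation p was 0.1, the smallest that 3 against 3 libraries allow (0.167 after Benjamini-Hochberg adjustment over 5 such ratios, all chosen after the values were seen). D030025P21Rik overlaps exons of Ltbp2 on the opposite strand in GENCODE M21, and the strand setting of the counting is not known, so part of the Ltbp2 counts could belong to it.

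The 3 TGF-beta ligands were expressed at different levels, and none was called. Tgfb3 was the most abundant per length, with authors' rounded FPKM of 31.3 and 29.3 in the libraries labelled knockout and in controls, beside 5.67 and 6 for Tgfb1 and 4 and 3.67 for Tgfb2. Tgfb1 was at 15.5, 13.8 and 14.6 CPM in the libraries labelled knockout, against 16.6, 13.5 and 16.0 CPM in controls (log2 −0.075, SE 0.0943, edgeR adjusted p 0.659). These values overlapped. Tgfb2 was at 19.9, 18.6 and 20.2 CPM in the libraries labelled knockout and 18.8, 15.6 and 18.1 CPM in controls (log2 0.16, SE 0.0842, edgeR adjusted p 0.254). For Tgfb3 the values were 106, 107 and 109 CPM in the libraries labelled knockout and 104, 86.8 and 102 CPM in controls (log2 0.13, SE 0.0632, edgeR adjusted p 0.201). Its groups did not overlap, with control 2 well below the other libraries.

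**Figure D2:**
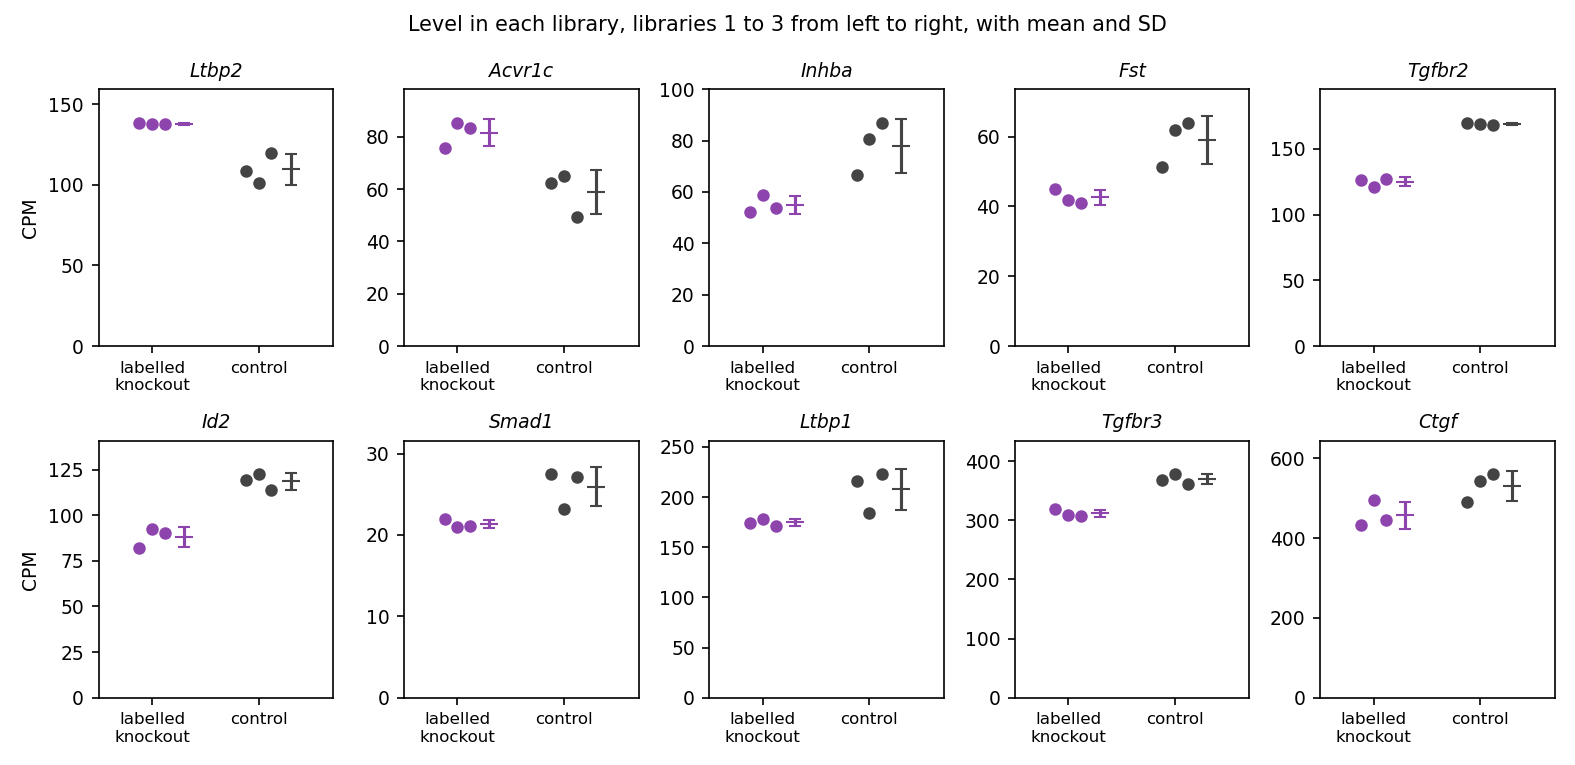
CPM in each library for the 9 pathway genes that changed and for Ctgf, libraries labelled knockout left and controls right, with mean and SD beside the points (n = 3 each). Points of the 2 groups do not overlap except for Ctgf, where knockout 2 (496 CPM) lies above control 1 (489.8 CPM).

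The activin A subunit gene and the follistatin gene both fell. Inhba encodes the beta A subunit, which forms activin A as a homodimer, and Fst encodes follistatin, which binds and neutralizes activins. Inhba was at 52.1, 59 and 53.6 CPM in libraries 1 to 3 labelled knockout, against 66.5, 80.5 and 87 CPM in controls 1 to 3. Every library labelled knockout was below every control, and the controls were more spread out. Inhba had the largest absolute log2 fold change of the 9 genes, falling to 0.703 of the control level (log2 −0.51, SE 0.0885, edgeR adjusted p 0.00497). Fst was at 45.1, 41.7 and 41.1 CPM in the libraries labelled knockout, against 51.2, 61.7 and 64 CPM in controls. As with Inhba, control 1 was the lowest of the controls and still above all libraries labelled knockout. Fst fell by 0.47 on the log2 scale (SE 0.0794, edgeR adjusted p 0.00434). Gm47040 overlaps Fst exons on the opposite strand.

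Both fell by similar amounts, and the ratio of Inhba to Fst CPM differed little. It was 1.16, 1.41 and 1.31 in the libraries labelled knockout and 1.3, 1.3 and 1.36 in controls, so the groups overlapped (exact two-sided permutation p = 0.9). Inhbb, the beta B subunit gene that adipocytes are known to express, was low here, at 4.37, 2.97 and 2.34 CPM in the libraries labelled knockout and 3.89, 2.57 and 2.81 CPM in controls (log2 0.065, SE 0.24, edgeR adjusted p 0.895). With a 95% interval from −0.46 to 0.59, a change of the size seen for Fst in either direction is within or near what these counts allow.

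The remaining follistatin-like genes and gremlin were lower on average without passing the threshold. Grem1, an antagonist of BMP2 and BMP4, was among the most abundant pathway genes, at 503, 462 and 455 CPM in the libraries labelled knockout and 604, 467 and 576 CPM in controls. Control 2 fell within the range of the libraries labelled knockout, and the log2 difference was −0.21 (edgeR adjusted p 0.119). Fstl1, a secreted glycoprotein with a follistatin domain, had the highest CPM of all pathway genes, averaging 753 ± 17.3 CPM in the libraries labelled knockout and 832 ± 89.4 CPM in controls (edgeR adjusted p 0.201). Without control 2 both were called lower, Grem1 with an adjusted p of 0.00373 and Fstl1 with 0.0142. Fstl3, which also binds activins, was near 1 CPM, averaging 1.17 ± 0.201 CPM in the libraries labelled knockout and 1.56 ± 0.142 CPM in controls (edgeR adjusted p 0.275).

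Among BMP and GDF ligands, few were analysed and none was called. The 5 genes gave 0 calls with edgeR, 0 with DESeq2 and 0 with limma-voom, and 0 had an unadjusted p under 0.05. Bmp4, the BMP tied to adipocyte commitment, was low, at 7.42, 5.67 and 6.16 CPM in the libraries labelled knockout and 5.75, 5.82 and 6.02 CPM in controls (log2 0.13, SE 0.128, edgeR adjusted p 0.55). The groups overlapped, with knockout 1 highest. Gdf5, a BMP-type ligand known from joint formation, averaged 9.83 ± 0.642 and 8.39 ± 1.44 CPM in the libraries labelled knockout and in controls, and Gdf11, a close relative of myostatin, 8.85 ± 2.4 and 9.91 ± 1.75 CPM. Bmp3, a BMP known to restrain bone formation, had the largest absolute difference of all 46 (log2 −0.54) but only 7 counts in its lowest library, and its 95% interval ran from −1.19 to 0.11. Bmp1 is a secreted procollagen protease rather than a ligand of the family, and averaged 106 ± 6.2 CPM in the libraries labelled knockout and 117 ± 12.8 CPM in controls (edgeR adjusted p 0.262, and 0.0445 without control 2).

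At the receptors, the type II TGF-beta receptor gene and the co-receptor gene Tgfbr3 fell while the activin type I receptor gene Acvr1c rose. Tgfbr2, which encodes the type II receptor that binds TGF-beta first, was at 126, 121 and 127 CPM in libraries 1 to 3 labelled knockout, against 170.0, 169 and 168 CPM in controls 1 to 3. Both groups were tight and far from each other. Tgfbr2 fell to 0.739 of the control level (log2 −0.44, SE 0.0397, 95% interval −0.52 to −0.35), with the smallest adjusted p of the pathway genes (edgeR, 0.000119). Tgfbr3, or betaglycan, presents TGF-beta to the type II receptor and is also known to bind inhibins. It was at 318, 309 and 308 CPM in the libraries labelled knockout and 368, 378 and 361 CPM in controls, again without overlap, and fell by 0.24 on the log2 scale (SE 0.0402, edgeR adjusted p 0.00387). Gm43422 overlaps it on the same strand, so some of its counts are uncertain.

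Tgfbr1, the type I partner of Tgfbr2, differed much less. It was at 77.1, 78.7 and 79.7 CPM in the libraries labelled knockout and 82.5, 85.4 and 84.9 CPM in controls (log2 −0.10, SE 0.0423, edgeR adjusted p 0.144). The groups did not overlap, but the difference did not pass the threshold over all genes. The ratio of Tgfbr2 to Tgfbr1 CPM was 1.64, 1.54 and 1.6 in the libraries labelled knockout and 2.06, 1.98 and 1.98 in controls. The mean ratio was 0.793 times that of controls (exact two-sided permutation p = 0.1, adjusted 0.167). This pair was chosen after the values were seen, and 0.1 is the smallest p that 3 against 3 libraries allow. Per length, in the authors' rounded FPKM, Tgfbr2 stood at 16, 15 and 16 in the libraries labelled knockout and at 21 in every control. Bmpr2, the type II receptor for BMPs, stood at 18, 15 and 18 in the libraries labelled knockout and at 16, 17 and 16 in controls. On that scale Tgfbr2 was above Bmpr2 in all 3 controls, and at or below it in all 3 libraries labelled knockout, with a tie at 15 in knockout 2. The gene lengths behind these whole numbers are not given, so the order of the 2 genes is uncertain. In CPM, which ignores length, Tgfbr2 (121 to 170) was above Bmpr2 (52.9 to 62.4) in all 6 libraries.

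Acvr1c, the receptor ALK7 that in mice is known to restrain lipolysis in adipocytes, showed the largest rise among the pathway genes. It was at 75.9, 85.5 and 83.4 CPM in the libraries labelled knockout, against 62.5, 65 and 49.4 CPM in controls. The lowest library labelled knockout lay above the highest control, and control 3, which also had the lowest adipocyte marker sum (9485 CPM), was the lowest library. Acvr1c rose 1.39-fold (log2 0.47, SE 0.0898, edgeR adjusted p 0.00736), with a log2 fold change of 0.36 without control 3. Gm13544 overlaps it on the opposite strand. Acvr1b, the more broadly expressed activin type I receptor gene (ALK4), averaged 13.9 ± 0.374 CPM in the libraries labelled knockout and 15.8 ± 1.06 CPM in controls (log2 −0.19, edgeR adjusted p 0.165). The ratio of Acvr1c to Acvr1b CPM, also chosen after the values were seen, was 5.41, 6.34 and 5.88 in the libraries labelled knockout. It was 4.27, 4.05 and 2.95 in controls (exact two-sided permutation p = 0.1, the smallest possible here, adjusted 0.167).

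**Figure D3:**
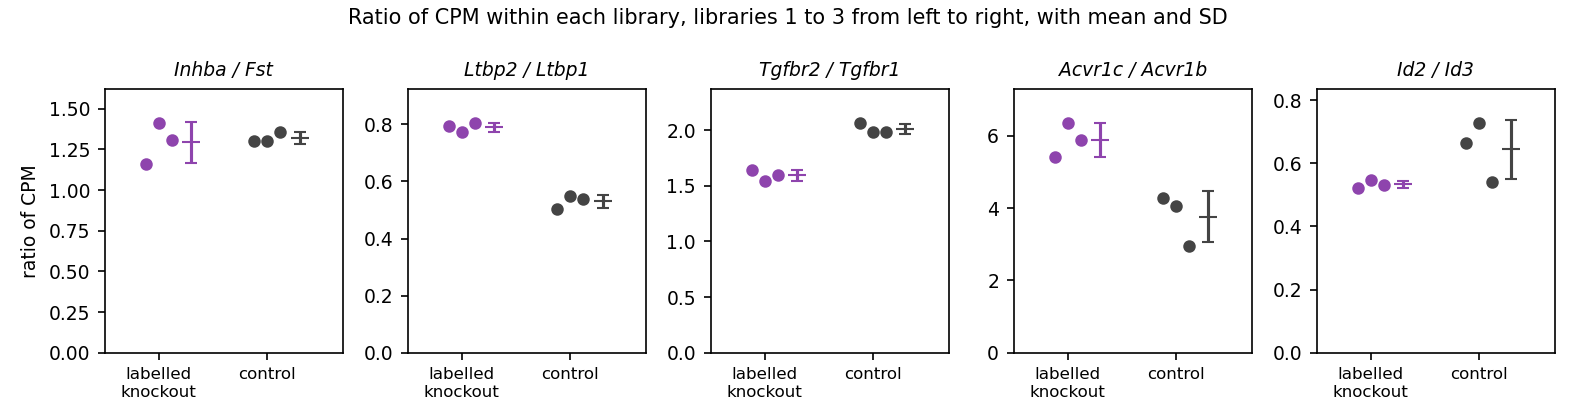
Ratio of the CPM of 2 pathway genes within each library, libraries labelled knockout left and controls right, with mean and SD (n = 3 each). The groups lie apart for Ltbp2 over Ltbp1, Tgfbr2 over Tgfbr1 and Acvr1c over Acvr1b, and overlap for Inhba over Fst and Id2 over Id3. All pairs were chosen after the values were seen.

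The BMP receptors and the activin type II receptors gave no calls. Bmpr1a, the main BMP type I receptor gene here, was at 174, 184 and 181 CPM in the libraries labelled knockout and 192, 195 and 179 CPM in controls (log2 −0.07, SE 0.0462, edgeR adjusted p 0.358). Bmpr2 was at 61.3, 52.9 and 62.4 CPM in the libraries labelled knockout and 54.6, 61.3 and 56.7 CPM in controls (log2 0.04, SE 0.0681, edgeR adjusted p 0.78). Both overlapped between groups, and their 95% intervals ran from −0.17 to 0.03 and from −0.11 to 0.19. Acvr1 (the BMP receptor ALK2) and Acvr2a had log2 differences of −0.05 and 0.06. Acvr2b and the endothelial receptor gene Acvrl1 were below 3 CPM, with wide intervals from −0.54 to 1.07 and from −0.51 to 0.28. Bambi, a decoy receptor without a kinase, averaged 12.1 ± 1.25 CPM in the libraries labelled knockout and 12.1 ± 0.652 CPM in controls (edgeR adjusted p 0.995).

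Within the SMAD and SMURF genes, 1 of 10 fell and none rose, a share of 10.0% near the 12.3% of all tested genes. Smad1, a receptor SMAD of the BMP branch, was at 21.9, 21 and 21.2 CPM in the libraries labelled knockout and 27.5, 23.2 and 27.2 CPM in controls. The libraries labelled knockout were close together below all controls, of which control 2 was the nearest. Smad1 fell by 0.28 on the log2 scale (SE 0.077, edgeR adjusted p 0.0352), a call that DESeq2 did not make (adjusted p 0.0691) and that was lost without control 1, control 3 or any 1 of the 3 libraries labelled knockout (adjusted p 0.0618 to 0.131). Smad9, of the same branch, was lower by a like amount (log2 −0.29) at 10.3 ± 0.617 CPM in the libraries labelled knockout and 12.5 ± 1.55 CPM in controls (edgeR adjusted p 0.112), whereas Smad5, the most abundant of the 3 in CPM, was at 105 ± 3.54 and 108 ± 4.81 CPM (log2 −0.03).

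The SMAD genes of the TGF-beta and activin branch differed by less than their spread. Smad2 was at 78.2, 75 and 80.0 CPM in the libraries labelled knockout and 80.0, 75.4 and 78.7 CPM in controls (log2 −0.006, SE 0.0461, edgeR adjusted p 0.95). Smad3 was at 68.8, 67 and 72 CPM in the libraries labelled knockout and 70.6, 66.7 and 77.8 CPM in controls (log2 −0.05, SE 0.0597, edgeR adjusted p 0.617). Both sets of values overlapped fully. The common partner Smad4 was at 89, 96 and 94.4 CPM in the libraries labelled knockout and 92.7, 100.7 and 97.5 CPM in controls (log2 −0.06, SE 0.049, edgeR adjusted p 0.483). The 95% intervals of Smad2, Smad3 and Smad4 reached no further than −0.18 and 0.10, so changes of the size of Tgfbr2 (−0.44) lie outside them.

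The inhibitory SMADs and the SMURF ubiquitin ligases, which target receptors and SMADs for degradation, gave no calls. Smad6, which acts mainly against BMP signals, was at 21.1, 23.9 and 24.4 CPM in the libraries labelled knockout and 24, 20.6 and 22.4 CPM in controls (log2 0.05, SE 0.081, edgeR adjusted p 0.755). Smad7, a feedback inhibitor that TGF-beta itself induces, was at 24.6, 23.2 and 22.2 CPM in the libraries labelled knockout and 23.4, 27.4 and 27.6 CPM in controls (log2 −0.16, SE 0.08, edgeR adjusted p 0.216). Overlap between groups was present for both genes. Smurf1 averaged 112 ± 1.92 CPM in the libraries labelled knockout and 121 ± 3.11 CPM in controls without overlap (log2 −0.11, edgeR adjusted p 0.117), and Smurf2 88.3 ± 0.458 and 90.9 ± 3.65 CPM (log2 −0.04).

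Among the target genes, Id2 fell and its relatives Id1, Id3 and Id4 were not called. ID proteins bind basic helix-loop-helix factors and keep them off DNA, and their genes are textbook targets of BMP signals. Id2 was at 81.9, 92.2 and 90.5 CPM in the libraries labelled knockout, against 119, 122 and 114 CPM in controls. The groups were well separated, and Id2 fell to 0.745 of the control level (log2 −0.43, SE 0.0535, edgeR adjusted p 0.000905). Id1 was at 43.1, 47.6 and 48.8 CPM in the libraries labelled knockout and 44.6, 36.8 and 52.9 CPM in controls (log2 0.04, SE 0.106, edgeR adjusted p 0.833). Id3 was at 157, 169 and 170.0 CPM in the libraries labelled knockout and 180, 169 and 210.1 CPM in controls (log2 −0.17, SE 0.072, edgeR adjusted p 0.143), with an adjusted p of 0.0351 without control 2. Control libraries varied most for Id1 and Id3, and for both control 2 was the lowest control and control 3 the highest. The ratio of Id2 to Id3 was 0.523, 0.546 and 0.532 in the libraries labelled knockout and 0.664, 0.726 and 0.541 in controls, so control 3 fell among the libraries labelled knockout (exact two-sided permutation p = 0.2, adjusted 0.25). Id4 was near 7 CPM in both groups (log2 −0.10, edgeR adjusted p 0.634).

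Ctgf and Tgfbi, matrix genes that TGF-beta induces in many cell types, did not pass the threshold. Ctgf, one of the highest pathway genes per length (183 and 214 in the authors' rounded FPKM in the libraries labelled knockout and in controls), was at 432, 496 and 446 CPM in the libraries labelled knockout and 489.8, 542 and 560.3 CPM in controls. The groups overlapped slightly, and the log2 difference was −0.21 (SE 0.0637, edgeR adjusted p 0.0513). Ctgf was called lower with DESeq2 (adjusted p 0.0188), with library size alone (0.0359), and without control 1 (0.0415) or knockout 2 (0.0304). Tgfbi was at 34.7, 29.5 and 35.6 CPM in the libraries labelled knockout and 37.4, 29.8 and 39.7 CPM in controls (log2 −0.11, SE 0.102, edgeR adjusted p 0.553). Replicate 2 was the lowest in both groups.

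Further genes of the pathway were taken from a list of 79 chosen by name that shares no gene with the 46, of which 57 were analysed and 56 tested. Of the 56, 5 rose and 13 fell, 32.1% in all beside 12.3% of all tested genes, and their median log2 fold change was −0.09. This list was chosen with earlier results of these data known, so its share is a description and no test of the pathway. The secreted and matrix proteins of the list held most of these calls. In the group for activation, storage and processing 1 of 14 rose and 6 fell, and among antagonists 1 of 8 rose and 4 fell. The nuclear partners and regulators gave 1 fall among 11. Of these 11, 9 were lower and 2 higher, called or not, with a median log2 fold change of −0.12. Without knockout 3 the list had 3 rises and 5 falls, and without knockout 2 it had 3 rises. Dcn also stands among the fibroblast markers, and Acta2 and Tagln among the smooth muscle markers.

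**Figure D4:**
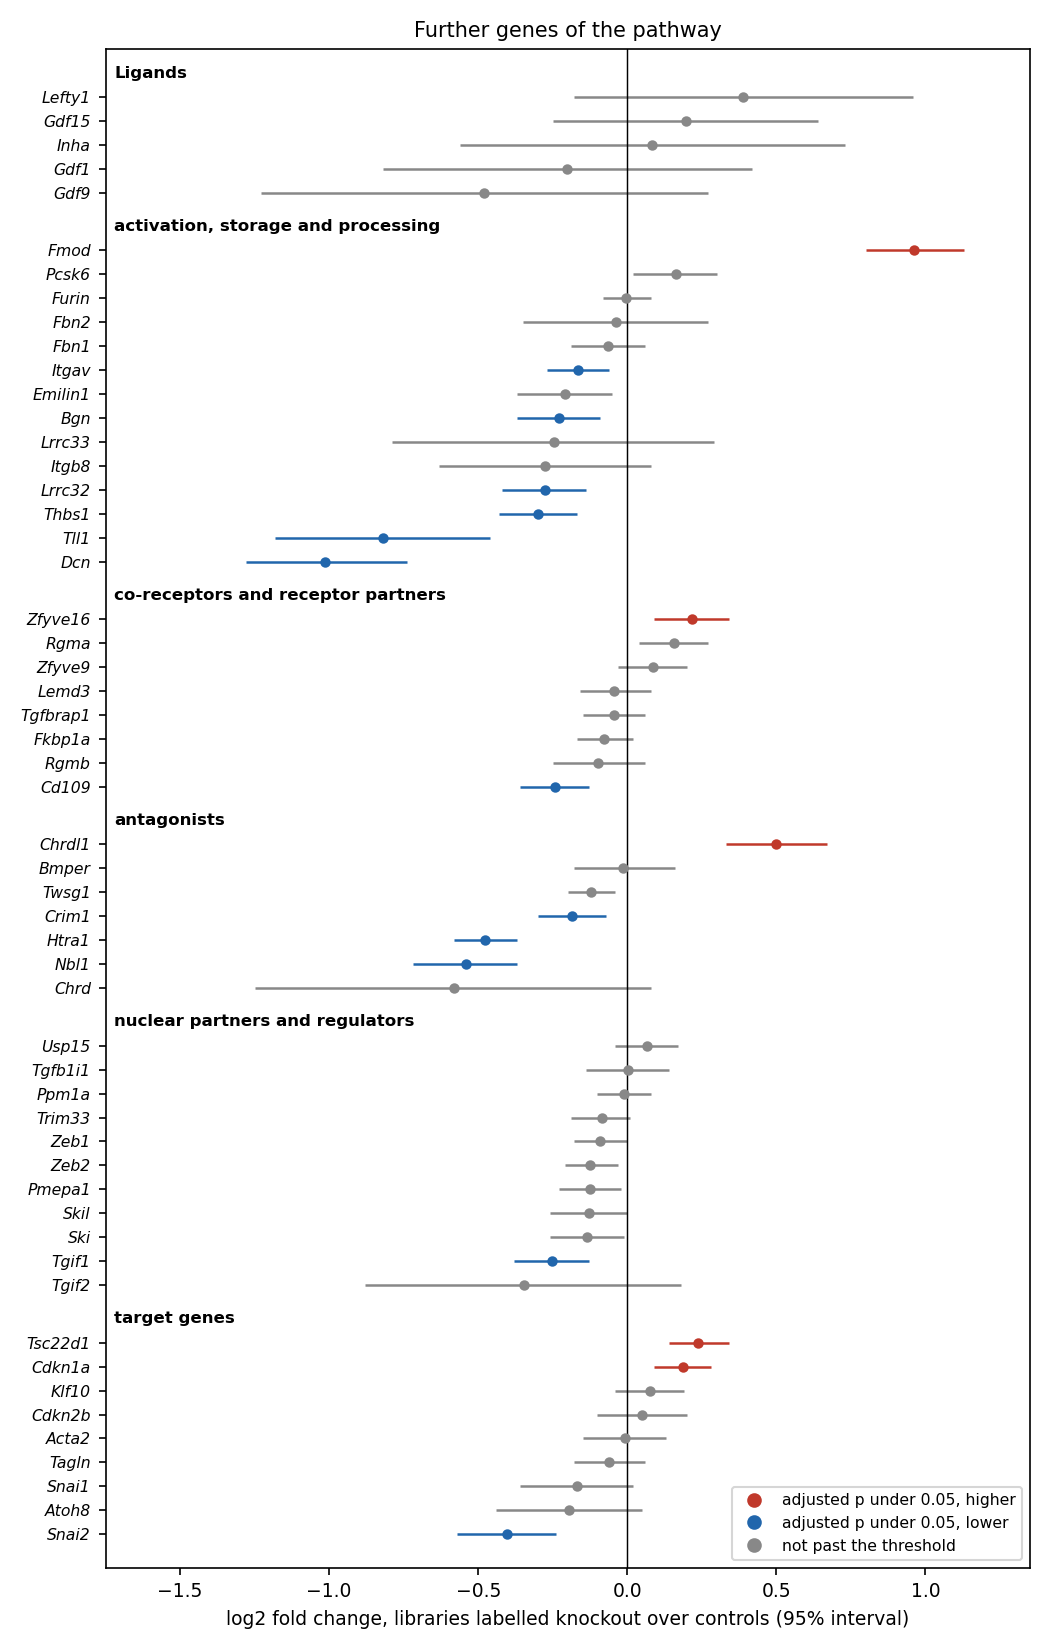
Log2 fold change (libraries labelled knockout over controls, n = 3 each) of 54 of the 56 further tested pathway genes by role, with 95% intervals. Fmod lies furthest right at 0.96 and Dcn furthest left at −1.01, and most nuclear partners lie a little left of 0.

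The small proteoglycan genes Fmod and Dcn, whose products bind TGF-beta, moved in opposite directions. Fmod, which encodes fibromodulin, was at 118, 107 and 119 CPM in libraries 1 to 3 labelled knockout, against 60.6, 51.1 and 64.1 CPM in controls 1 to 3, and rose 1.95-fold (log2 0.96, SE 0.0758, edgeR adjusted p 4.35e-05). Dcn, which encodes decorin, was at 64.9, 51.2 and 62.8 CPM in the libraries labelled knockout and 99.6, 117 and 144 CPM in controls, and fell by 1.01 on the log2 scale (SE 0.123, edgeR adjusted p 0.000719). For both genes the groups lay far apart, though the Dcn controls were widely spread. Thbs1, whose product thrombospondin 1 can release TGF-beta from its latent complex, was the most abundant of the further pathway genes named here in CPM. It was at 2764, 3098 and 2896 CPM in the libraries labelled knockout and 3506, 3648 and 3618 CPM in controls (log2 −0.30, SE 0.0587, edgeR adjusted p 0.00866). Tll1, a tolloid-type protease that cleaves the BMP antagonist chordin, was at 4.99, 5.81 and 4.89 CPM in the libraries labelled knockout and 7.28, 9.21 and 11.1 CPM in controls (log2 −0.82, SE 0.162, edgeR adjusted p 0.00876). Without knockout 3 the calls of Thbs1 (adjusted p 0.0557) and Tll1 (0.0515) were lost.

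The antagonists of BMPs changed in both directions. Nbl1, a BMP antagonist of the DAN family, was at 34.1, 32.8 and 31.3 CPM in the libraries labelled knockout and 47.9, 41.9 and 52.9 CPM in controls (log2 −0.54, SE 0.0796, edgeR adjusted p 0.00204). Htra1, a secreted serine protease reported to bind TGF-beta family proteins, was at 53.9, 52.8 and 57 CPM in the libraries labelled knockout and 75, 75.3 and 77.2 CPM in controls (log2 −0.48, SE 0.0467, edgeR adjusted p 0.00018). Both were lower in every library labelled knockout than in any control. Chrdl1, a chordin-like BMP antagonist, went the other way, at 50.5, 55.8 and 54.4 CPM in the libraries labelled knockout and 39.2, 41.6 and 33.3 CPM in controls (log2 0.50, SE 0.0765, edgeR adjusted p 0.00251). A further antagonist that fell, Crim1, was named after its values were seen (log2 −0.19, edgeR adjusted p 0.0359), and its call was lost with DESeq2 (adjusted p 0.0663) and when any 1 library other than control 2 was left out (0.0503 to 0.153).

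Target genes outside the 46 gave 2 rises and 1 fall among 10, or 30.0% beside 12.3% of all tested genes. Tsc22d1, known as a TGF-beta-stimulated clone, was at 475, 512 and 479 CPM in the libraries labelled knockout and 423, 408 and 412 CPM in controls (log2 0.24, SE 0.0444, edgeR adjusted p 0.00701). Snai2, the repressor Slug, was at 36.4, 35.5 and 33.8 CPM in the libraries labelled knockout and 45.9, 41.7 and 51.8 CPM in controls (log2 −0.40, SE 0.0757, edgeR adjusted p 0.00714). Neither gene overlapped between groups. The further rise was that of the cell cycle inhibitor gene Cdkn1a, named after its values were seen (log2 0.19, edgeR adjusted p 0.0175), a call that was lost when knockout 2 (adjusted p 0.0581) or knockout 3 (0.0778) was left out.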

How the data were processed

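RNA-seq counts of 6 libraries were analysed, 3 labelled TLE3 knockout and 3 controls, grouped by their titles. The authors deposited whole-number read counts per gene and FPKM rounded to whole numbers, per the file headers. The authors' rounded FPKM values are handled here as a score, serve only to set levels of genes side by side per length, and enter no test. The submitters' processing notes name mm9 as the build and list Novoalign 2.8, Picard and DESeq2. Which counter, annotation and strand setting made the counts is not given in the sources used here, so genes that overlap others are uncertain (17 of the 46 pathway genes, 4 of the 9 called, by exons of GENCODE M21). Every gene in the table has at least 10 counts in some library. No 2 libraries of a group agreed within sampling noise (chi-square per degree of freedom 2.97 to 7.81).

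Counts were fitted with edgeR 4.0.16 in R 4.3.3 by the quasi-likelihood test with the group alone, TMM factors and the package's expression filter, which kept 13192 of 13962 genes. Adjusted p-values are Benjamini-Hochberg over all of them, and called means under 0.05. Values are mean ± SD of CPM (n = 3 per group); SE is the log2 fold change over the root of F. Alternatives were DESeq2 1.42.0, limma-voom (limma 3.58.1), other scalings and filters, a replicate block and leaving out each library. The pathway genes, the other lists and the naming rule (called members, core nodes, and the 10 further genes with the smallest adjusted p) were chosen with earlier results of these data known. Promoter sequences come from RefSeq on GRCm38.p6; 33 of the 46 genes matched by symbol. Of the further pathway genes, 2 are counted but not reported singly here.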

Additional observations from a re-analysis of the deposited data

How the results depend on the processing

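Under 13 alternatives, 7 of the 9 pathway calls held throughout (Tgfbr2, Id2, Tgfbr3, Fst, Inhba, Ltbp2 and Acvr1c), and no called gene changed sign. Of the 37 genes that were not called, 32 were called under none of the alternatives that gave them an adjusted p, and 9 changed sign somewhere without a call. Acvr2b and Bmp3 had values under 11 alternatives, without DESeq2 and the filter at 1 CPM. Leaving out each library in turn gave 7 to 13 changed pathway genes (2 in each case that rose, 5 to 11 that fell), with a median log2 fold change from −0.114 to −0.052. The further pathway genes gave 8 to 19 (3 to 5 that rose, 5 to 14 that fell), and 8 of their 18 calls held under all 13. All genes gave 621 to 1895 (332 to 1025 that rose, 289 to 870 that fell). A fit without 1 library has fewer samples, and why the counts differed with the library left out was not tested. With other tools, scalings and filters, pathway calls numbered 9 or 10. Of the 5 ratios none moved by more than the spread between replicates when a library was left out. Dropping 1 of 3 libraries shifts a group mean by less than that spread, so this could hardly have come out otherwise and is no check. Correlations of same-numbered deviations were −0.0396, 0.191 and 0.0308, and those of differently numbered libraries ran from −0.235 to 0.227. The replicate numbers thus showed no consistent pairing, which does not settle whether same-numbered libraries share a culture. With a replicate block, 1809 genes and 11 pathway genes were called, among them Ctgf (edgeR adjusted p 0.0238) and Grem1 (0.0495). Depth limits the pathway genes below about 3 CPM, where the lowest library had 7 counts.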
